A study of Caenorhabditis elegans with 9 samples.

Results

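Embryos of sdc-2(y93) mothers under RNAi were compared with control embryos of the nematode Caenorhabditis elegans, gene by gene, with X-linked and autosomal genes described apart. The comparison used 6 of the 9 arrays of the series, 3 from sdc-2(y93)+RNAi embryos and 3 from control embryos. Each gene was represented by the brightest probe set that the platform annotation assigns to that gene alone, which gave 17118 genes, 2353 of them on X and 14718 on an autosome. Control embryos came from wild-type (N2) XX mothers fed bacteria with the empty RNAi vector L4440 for 96 hours. The sdc-2(y93)+RNAi embryos came from XX mothers that carried the sdc-2 allele y93, spent 24 hours on HB101 bacteria as larvae and were then fed RNAi bacteria for 72 hours. The source label of these embryos names sdc-2 as the target of the RNAi, whereas the growth protocol names only a plasmid against smo-1 for both RNAi groups. All mothers were kept at 20 °C, embryos were of mixed stages, and total RNA of whole embryos was hybridised to Affymetrix arrays. The remaining 3 arrays, from wild-type embryos under smo-1 RNAi, entered the estimate of the spread, and their values are quoted only beside some genes.

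In C. elegans, XX animals develop as hermaphrodites and XO animals as males. The dosage compensation complex, built around a condensin, binds both X chromosomes of hermaphrodites and lowers their transcription, so that the output of a pair of X chromosomes approaches that of the single X of males. SDC-2 brings the complex to X, and it also represses her-1, an autosomal gene that promotes male fate. Upstream of SDC-2 acts xol-1, a switch gene kept low in XX embryos by X signal elements, genes that report the number of X chromosomes.

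Values are log2 levels made by RMA, in which a difference of 1 is a doubling, and a difference is always sdc-2(y93)+RNAi minus control. A gene was called higher or lower when its limma adjusted p was under 0.05, and errors of differences are standard errors (SE) of that fit. Levels are given per array in the order of replicates 1, 2 and 3, and group means ± SD have n = 3. Where genes are sorted by level or set above the median level, the level is the mean over all 9 arrays, including those compared. Of all genes, 26.5% were called. Groups are said not to overlap when all 3 arrays of one lay beyond all 3 of the other, as held for 45.5% of X-linked genes upward and 3.91% downward and for 12.1% and 23.8% of autosomal genes. The labels do not state whether the replicates of a group were grown separately. The p-values therefore rest on the spread among these arrays, part or all of which may be technical. In whole embryos, fewer cells of a type and less messenger per cell cannot be told apart, and RMA compresses the differences of dim genes. Arrays of the same group correlated at 0.984 to 0.997 over genes, and arrays of different groups at 0.959 to 0.979.

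The 4 hybridisation controls, sequences foreign to the worm, were bright on no arrays but those of sdc-2(y93)+RNAi embryos, up to 12.9 to 13.1 for cre against 5.12 to 5.16 on control arrays, so handling of the arrays and genotype cannot be told apart. The level of the 3' probe set over the 5' probe set, a measure of RNA integrity or labelling length, was larger by 0.81 for actin, 0.52 for GAPDH and 0.34 for ubiquitin and smaller by 0.08 for catalase on the sdc-2(y93)+RNAi arrays. The part of these differences in the results below was not tested.

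A gene's probe sets did not always give the same result. Of 1434 called genes with several probe sets, 992 (69.2%) had at least 1 other probe set that was not called in the same direction, with p-values adjusted over all probe sets. Among the called genes named below this held for 43 of 85, and 3 of them, ajm-1, sax-3 and taf-3, had a probe set called in the opposite direction. Values of such other probe sets above the median level stand beside the genes whose levels are given per array, or at the end of the account of the X-linked genes. Whether they read other transcripts of the gene was not tested.

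The array carried 2 probe sets for sdc-2. The brighter gave 9.74, 9.60 and 9.80 in control and 9.09, 9.58 and 9.43 in sdc-2(y93)+RNAi embryos, a difference of -0.35 ± 0.16 that did not pass the test (limma adjusted p = 0.14). The groups did not overlap, but the highest sdc-2(y93)+RNAi array nearly reached the lowest control array. The dimmer probe set of sdc-2, of a kind that can bind more than 1 transcript, gave 9.13, 8.92 and 9.05 in control and 7.59, 7.59 and 7.78 in sdc-2(y93)+RNAi embryos. There the groups were well apart, with a difference of -1.38 ± 0.10, and the mean of both probe sets differed by -0.86 and was called lower. The positions of the probes relative to the lesion and to the double-stranded RNA were not looked up here. The gene smo-1, which encodes the modifier SUMO, was at 11.96, 11.79 and 12.04 in control and at 10.96, 10.74 and 10.94 in sdc-2(y93)+RNAi embryos. All 3 of the latter arrays lay below every control array, with a difference of -1.05 ± 0.17 (limma adjusted p = 0.00094).

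The male-promoting gene her-1 stood at 7.50, 7.19 and 7.24 in control embryos and at 9.78, 9.73 and 9.84 in sdc-2(y93)+RNAi embryos. Every sdc-2(y93)+RNAi array was thus more than 2 units above the highest control array, and the difference was 2.48 ± 0.10 (limma adjusted p = 4.2e-07). The switch gene xol-1 was at 6.95, 6.80 and 7.09 in control and at 8.78, 9.17 and 8.76 in sdc-2(y93)+RNAi embryos. Its rise was 1.96 ± 0.13 (limma adjusted p = 1.3e-05), while its dimmer probe set, which reads xol-1 alone, rose by 0.52. All 5 X-linked genes of sex determination were called higher, with a median of 1.16. Of all X-linked genes 36.6% were called higher and 2.04% lower, and of X-linked genes above the median level 56.9% and 3.41%.

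The other 4 X-linked genes of this list included the X signal elements, which act to repress xol-1. The ONECUT homeodomain gene ceh-39 was at 9.99, 9.95 and 9.91 in control and at 11.25, 11.43 and 11.17 in sdc-2(y93)+RNAi embryos, a rise of 1.33 ± 0.13. Its 2 dimmer probe sets differed by 0.79 and 0.18, the latter not called. The RNA-binding protein gene fox-1 rose by 1.16 ± 0.16 and the nuclear receptor gene sex-1 by 0.49 ± 0.11 (limma adjusted p = 0.00045 and 0.0085), without overlap between groups. The signal elements and xol-1 were therefore higher together in the same embryos. In smo-1 RNAi embryos, compared with the same control arrays, xol-1 differed by 1.02, ceh-39 by -0.13, fox-1 by -0.74 and sex-1 by -0.74. The zinc finger gene tra-4, which promotes hermaphrodite fate, rose by 0.83 ± 0.08, but its other probe set differed by 0.31 and was not called. All but ceh-39 of these 5 genes were read by probe sets of a kind that can bind more than 1 transcript.

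Of 17 autosomal genes of sex determination 6 were called higher and 3 lower, against 6.75% and 17.8% of all autosomal genes. Besides her-1, the cell death activator gene egl-1 rose by 0.83 ± 0.15, the calpain gene tra-3 by 0.43 ± 0.10 and the phosphatase gene fem-2 by 0.51 ± 0.11. The call of fem-2 was lost, at 0.05, when its probe sets were averaged. The membrane protein gene tra-2, whose product is the receptor for HER-1, fell by 0.48 ± 0.12, a call lost on the brighter autosomal centring described below (-0.22), with quantile normalization (-0.32) and without control replicate 3 (-0.44). The helicase gene mog-1 fell by 0.87 ± 0.14 and the histone chaperone gene nasp-1 by 0.75 ± 0.14. The doublesex-related genes mab-3 and dmd-3, which act in male tissues, were dim and differed by 0.01 ± 0.10 and 0.12 ± 0.13, neither of them called.

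Members of the dosage compensation complex other than SDC-2 moved in both directions. Of its 8 autosomal members 3 were called higher and 3 lower, and neither X-linked member was called. The condensin subunit gene dpy-26 was at 9.68, 9.58 and 9.76 in control and at 9.01, 8.67 and 8.94 in sdc-2(y93)+RNAi embryos, a fall of 0.80 ± 0.11. The subunit gene dpy-28 went the other way, with a rise of 0.62 ± 0.11, with its lowest sdc-2(y93)+RNAi array at 9.35 and its control arrays between 8.71 and 9.0. In both genes the groups were apart. The subunit gene dpy-27 fell by 0.54 ± 0.08 and capg-1 rose by 0.42 ± 0.09, and each call was lost (-0.12 and 0.08) when probe sets of the gene were averaged. The demethylase gene dpy-21 rose by 0.54 ± 0.12, with 0.15 and no call on its other probe set. The gene dpy-30 fell by 0.34 ± 0.09, a call lost under centring on brighter autosomal genes (-0.07) and without control replicate 3 (-0.32). The genes sdc-1, sdc-3 and mix-1 differed by -0.28 ± 0.15, -0.03 ± 0.12 and -0.27 ± 0.15, and none of them was called. The dimmer probe set of sdc-1 went the opposite way and was called higher, by 0.60, and that of dpy-28 differed by 0.14 and was not called.

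**Figure D1:**
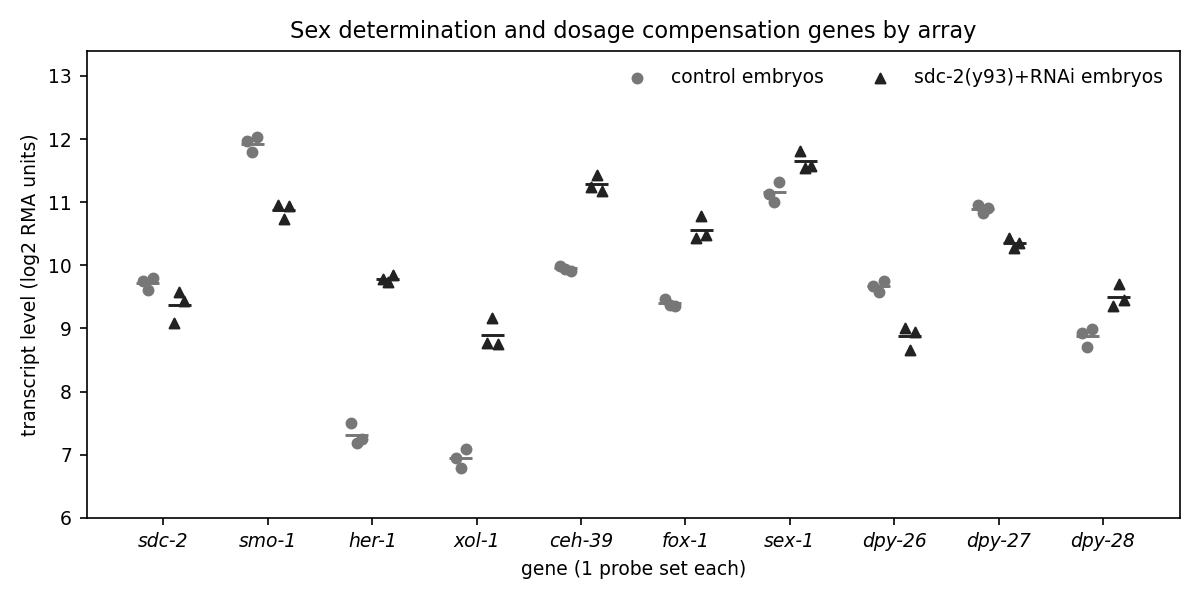
Log2 RMA level of 10 genes on each array, control embryos as circles and sdc-2(y93)+RNAi embryos as triangles, with horizontal bars at group means (n = 3 arrays each). The triangles of her-1, xol-1, ceh-39, fox-1, sex-1 and dpy-28 lie above all circles of the gene, and those of sdc-2, smo-1, dpy-26 and dpy-27 below them.

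Across X, the median difference of the 1380 genes above the median level of all genes (6.65) was 0.45, with quartiles of 0.14 and 0.83. Of these genes 84% were above 0, 40% were higher by more than 1.5-fold, 224 by more than 2-fold and 15 by more than 4-fold, while 3 were lower by more than 2-fold. The 7152 autosomal genes of that range had a median of -0.18, with 34.4% above 0, 20 higher by more than 4-fold and 331 lower by more than 2-fold. Of these autosomal genes 12.6% were called higher and 32.7% lower. Every autosome had a negative median, between -0.13 on IV and -0.21 on III. The distance between X and autosomes was 0.63, or 1.55-fold. Taken array by array against the control mean, it was 0.62, 0.71 and 0.57 in sdc-2(y93)+RNAi and -0.02, 0.07 and -0.05 in control embryos. The smo-1 RNAi arrays, set against the same control mean in a comparison that shares these arrays, gave 0.46, 0.43 and 0.48. The sdc-2(y93)+RNAi and control arrays were apart, and the exact two-sided permutation test gave p = 0.1, the smallest that 3 against 3 arrays allow.

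**Figure D2:**
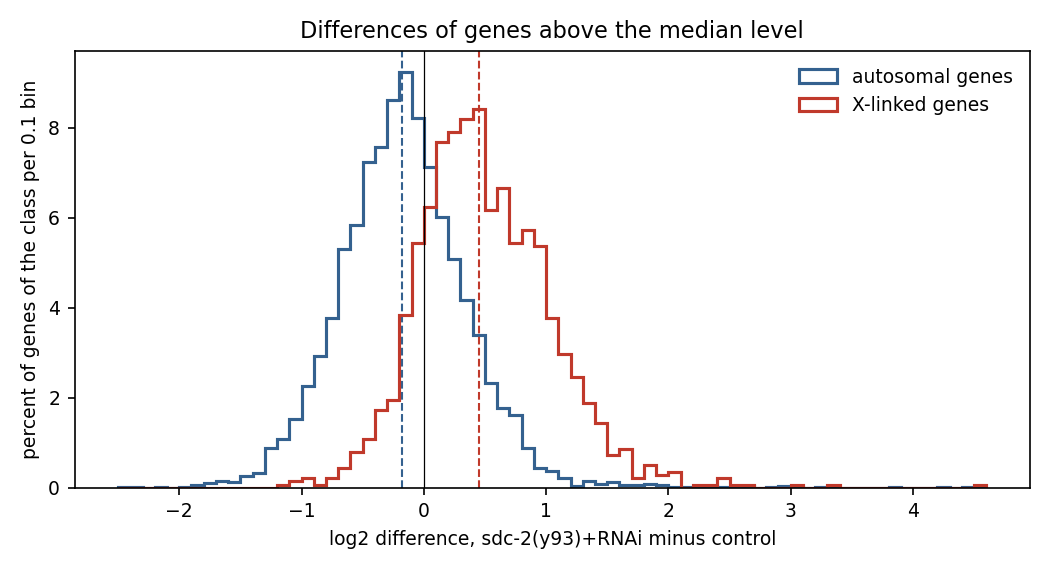
Distribution of the log2 difference of genes above the median level, in percent of the 1380 X-linked genes (red) or 7152 autosomal genes (blue) per bin of 0.1, with dashed lines at the medians. The X-linked curve is shifted to the right as a whole, with its median at 0.45 against -0.18 for autosomal genes.

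The X-linked difference grew with the level of the gene. Since that level includes the arrays compared, a gene raised in them moves toward the brighter eighths. The part of this in the trend was not tested. From the dimmest to the brightest eighth of all genes, the X-linked median was 0.07, 0.09, 0.12, 0.17, 0.31, 0.38, 0.48 and 0.64. The autosomal medians were 0.04, 0.05 and 0.04 in the dimmest eighths and -0.02, -0.16, -0.25, -0.21 and -0.09 in the others. Chemoreceptor genes, a family of dim genes, had small differences on X too. Of 34 X-linked chemoreceptor genes, 2 of them above the median level, 1 was called higher and the median was 0.10.

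**Figure D3:**
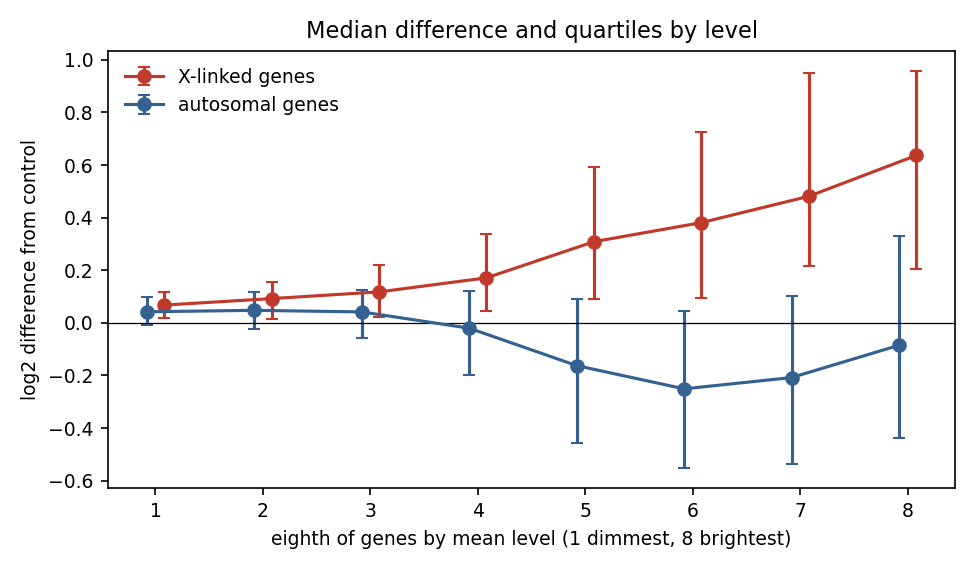
Median log2 difference with quartiles (bars) of X-linked (red) and autosomal (blue) genes in eighths of all genes ordered by mean level. X-linked medians rise from 0.07 to 0.64, whereas autosomal medians lie between -0.25 and 0.05.

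Autosomal calls depend on the scaling of the arrays, which makes their distributions alike. Centring each array on autosomal genes above the median level raised every difference by 0.26, and 5178 autosomal genes were then called higher and 1462 lower, in place of 993 and 2622. That is 35.2% and 9.93% of autosomal genes. Centring on all autosomal genes raised differences by 0.07 and gave 1265 and 2183. X-linked genes called higher numbered 862 on the values as deposited, and 1705 (72.5%) and 989 under these centrings. X-linked genes called lower numbered 16 (0.68%) on the first of these centrings. A fall of less than 0.26 therefore has no settled direction, and where the counts of a family turn with the centring, those on the brighter autosomal centring follow after "or". Autosomal counts after "or" stand beside the 35.2% and 9.93% of all autosomal genes. That centring also adds calls among dim genes, whose differences on the deposited values were small. Of 1290 autosomal chemoreceptor genes, 28 of them above the median level, 10 were called higher as deposited and 552 on that centring.

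The largest rise on X was that of C45B2.2, a gene without a described role here, which was at 5.89, 6.18 and 6.01 in control and at 10.57, 10.49 and 10.64 in sdc-2(y93)+RNAi embryos. Its difference of 4.54 ± 0.11 was 23.3-fold (limma adjusted p = 7.4e-09). C45B2.8, which lies 2 protein-coding genes away, rose by 2.08 ± 0.26. The long non-coding RNA tts-1 was at 8.75, 8.02 and 7.08 in control and at 11.08, 11.30 and 11.40 in sdc-2(y93)+RNAi embryos, a rise of 3.30 ± 0.31. Its control arrays spread over more than 1.6 units and still lay below all sdc-2(y93)+RNAi arrays. The next were C53B7.3 (3.04 ± 0.23), the secreted immunoglobulin-domain gene zig-3 (2.70 ± 0.10), M60.4 (2.59 ± 0.16), dbd-20 (2.47 ± 0.21), F53A9.6 (2.47 ± 0.11), the astacin protease gene nas-38 (2.44 ± 0.14), F52D2.7 (2.34 ± 0.10) and the branched-chain aminotransferase gene bcat-1 (2.24 ± 0.08). C53B7.3 and F53A9.6 were read by probe sets that can bind more than 1 transcript.

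These 10 genes did not share their values in smo-1 RNAi embryos. There C45B2.2 differed from control by 6.22, tts-1 by 4.81, zig-3 by 4.36 and bcat-1 by 3.73. F52D2.7 differed by 0.04, and was at 7.69, 7.45 and 7.69 in control and at 9.84, 9.98 and 10.02 in sdc-2(y93)+RNAi embryos, without overlap. The comparisons share the control arrays.

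The 10 lowest X-linked genes included 4 cuticle collagen genes. The annular furrow collagen gene dpy-7 was at 11.55, 11.63 and 11.59 in control and at 10.58, 10.44 and 10.64 in sdc-2(y93)+RNAi embryos, a fall of 1.03 ± 0.10 (limma adjusted p = 7.7e-05). dpy-3 fell by 1.04 ± 0.13, col-165 by 0.96 ± 0.11 and col-172 by 0.95 ± 0.11, each without overlap between groups. The discoidin domain receptor kinase gene ddr-1 fell most, by 1.10 ± 0.14. The others were the asparagine synthetase gene asns-2 (-0.91 ± 0.11), txdc-12.2 (-0.85 ± 0.11), C30E1.9 (-0.79 ± 0.19), K10B3.1 (-0.76 ± 0.09) and vhl-1, whose product directs the breakdown of the hypoxia factor HIF-1 (-0.73 ± 0.10). In smo-1 RNAi embryos asns-2 differed by 0.41 and C30E1.9 by -3.28.

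The AMP kinase, insulin, TGF-beta and Ras lists described next each had members on X and on autosomes. Their X-linked members were mostly called higher, while their autosomal members had no common direction. As a background, 56.9% of the brighter genes on X, those beyond the median level, were called higher. Over all autosomes the shares were 6.75% higher and 17.8% lower. Whether these lists exceed the shift of X as a whole was not tested. AMP-activated protein kinase is a trimer of a catalytic alpha, a beta and a gamma subunit that senses cellular energy. All 5 of its X-linked subunit genes were called higher, with a median of 0.72, and 1 of 6 autosomal members of the list was called higher and 2 lower, or 3 and 1 on the brighter autosomal centring. The catalytic subunit gene aak-2 on X was at 10.79, 10.73 and 10.62 in control and at 11.83, 12.05 and 11.89 in sdc-2(y93)+RNAi embryos, a rise of 1.21 ± 0.10 (limma adjusted p = 3.7e-05). Its other probe set, also above the median level, differed by -0.05 and was not called. The gamma subunit gene aakg-2 rose by 1.12 ± 0.11 and aakg-3 by 0.72 ± 0.14. The rises of the gamma subunit gene aakg-4 (0.58 ± 0.19) and the beta subunit gene aakb-1 (0.32 ± 0.10) were close to the threshold, and leaving out any 1 of the 6 arrays ended the call of aakg-4. The call of aakb-1 ended with the 6 arrays alone in the fit (0.32) and without control replicate 1 or 3 (0.31 and 0.28) or sdc-2(y93)+RNAi replicate 1 or 3 (0.24 and 0.34).

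The autosomal beta subunit gene aakb-2 went the opposite way to its X-linked counterpart. It was at 8.30, 8.34 and 8.47 in control and at 7.39, 7.07 and 7.05 in sdc-2(y93)+RNAi embryos, a fall of 1.20 ± 0.11 (limma adjusted p = 4.8e-05), and the groups were more than 0.9 apart. The autosomal gamma subunit gene aakg-1 fell by 0.56 ± 0.10, a call lost on the brighter autosomal centring (-0.30), and aakg-5 rose by 0.63 ± 0.09. The autosomal catalytic subunit gene aak-1 differed by 0.37 ± 0.16 and was not called (limma adjusted p = 0.14).

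In the insulin pathway, which controls growth and dauer formation, all 5 X-linked genes were called higher (median 1.03), and of 14 autosomal ones 4 were called higher and 1 lower. The kinase gene akt-2 was at 8.63, 9.16 and 8.69 in control and at 9.93, 10.40 and 10.37 in sdc-2(y93)+RNAi embryos, a rise of 1.41 ± 0.24 (limma adjusted p = 0.0015). The insulin receptor substrate gene ist-1 rose by 1.13 ± 0.13 and the kinase gene sgk-1 by 0.82 ± 0.12. The kinase gene pdk-1 rose by 1.03 ± 0.12 on its brightest probe set, while its other 4, all dimmer, differed by between -0.0034 and 0.17 and were not called. The 14-3-3 gene ftt-2 rose by 0.39 ± 0.10, a call lost with probe sets averaged (0.15) and without control replicate 2 (0.36). The autosomal kinase gene akt-1 rose by 0.71 ± 0.10, with -0.01 and no call on its other probe set. The phosphatase subunit gene pptr-1, whose product acts on AKT-1, was at 8.62, 8.79 and 8.86 in control and at 7.47, 7.41 and 7.61 in sdc-2(y93)+RNAi embryos, a fall of 1.26 ± 0.12. The receptor gene daf-2, the lipid kinase gene age-1 and the forkhead factor gene daf-16 differed by -0.15 ± 0.11, -0.22 ± 0.14 and 0.24 ± 0.14, and none of them was called.

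In the TGF-beta pathway, which sets body size and dauer entry, all 4 X-linked genes were called higher and 2 of 17 autosomal ones. The salt-inducible kinase gene kin-29 rose by 1.26 ± 0.13, the glypican gene lon-2 by 1.17 ± 0.15, the co-Smad gene daf-3 by 0.84 ± 0.10 and the Schnurri gene sma-9 by 0.66 ± 0.10. On autosomes the ligand gene daf-7 rose by 0.42 ± 0.09, and the call of daf-5 (0.50 ± 0.12) was lost, at -0.23, on the probe set of that gene alone. In the EGF, FGF and Ras pathway 5 of 7 X-linked genes were called higher, and 5 of 20 autosomal ones higher and 2 lower. The scaffold gene ksr-1 was at 8.30, 8.37 and 8.42 in control and at 9.52, 10.28 and 9.93 in sdc-2(y93)+RNAi embryos, a rise of 1.55 ± 0.17, with 0.33 and no call on its other probe set. The adaptor gene sem-5, with a rise of 0.82 ± 0.10, and the Cbl gene sli-1, with 0.86 ± 0.14, followed it on X. On autosomes the Ras gene let-60 rose by 0.76 ± 0.12, though its other probe set differed by -0.01 and was not called, and the phosphatase gene ptp-2 by 0.85 ± 0.11, whereas the MAP kinase kinase gene mek-2 fell by 1.00 ± 0.11.

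**Figure D4:**
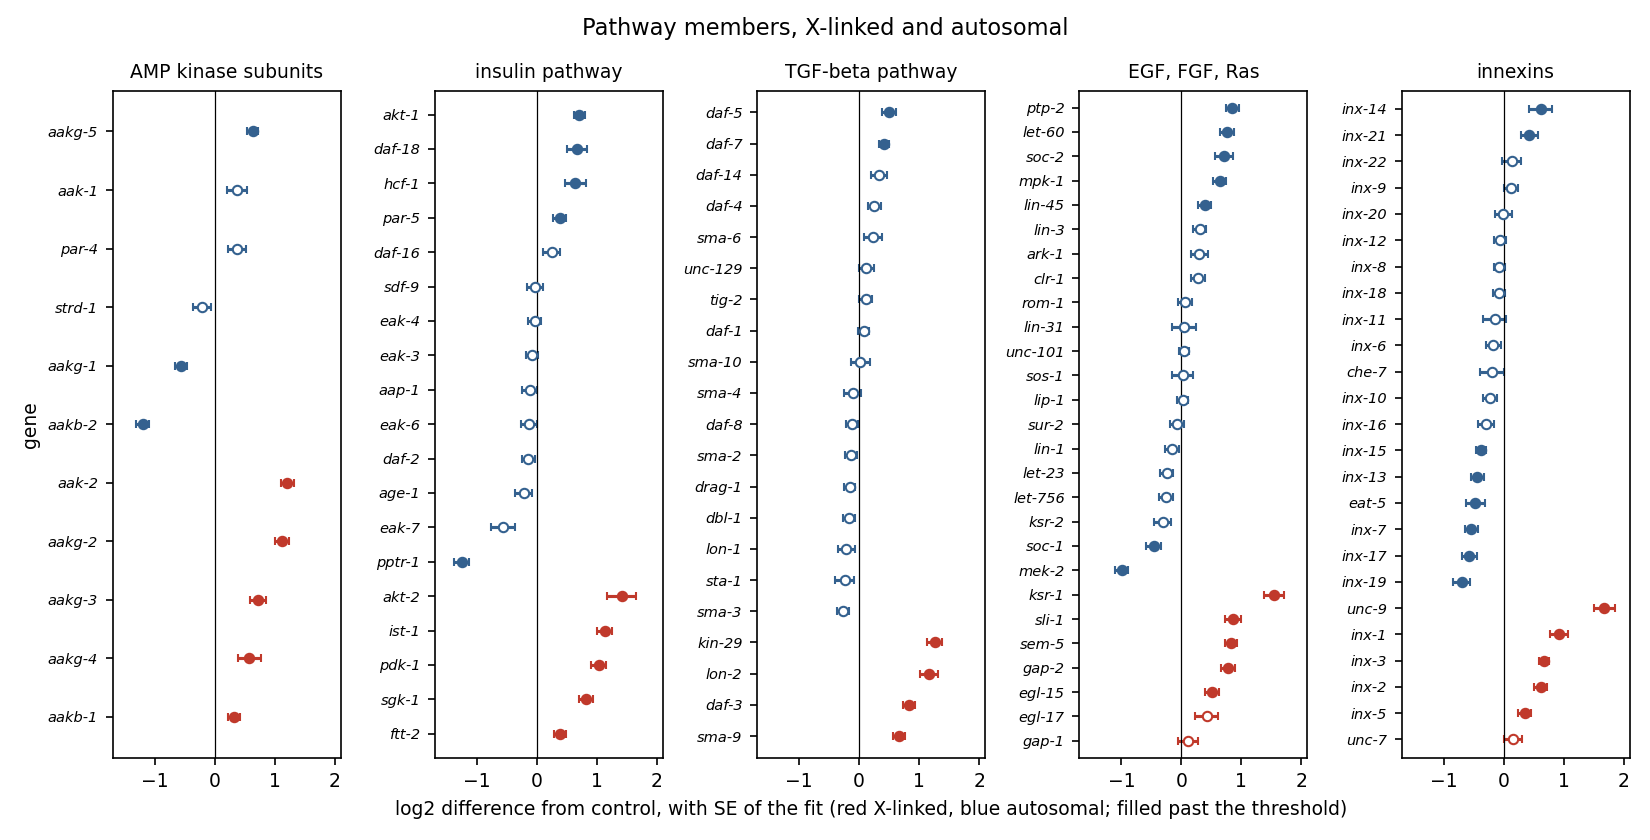
Log2 difference (point) with the SE of the fit (bar) for every measured member of 5 lists, X-linked in red and autosomal in blue, filled where the limma adjusted p was under 0.05. All X-linked points lie to the right of 0, from 0.11 for gap-1 to 1.68 for unc-9, and autosomal points lie on both sides, from -1.26 for pptr-1 to 0.85 for ptp-2.

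Wnt and Notch pathway genes were mostly autosomal. The X-linked gene mom-1, an acyltransferase needed to release Wnt, was at 7.35, 7.27 and 7.41 in control and at 9.14, 9.10 and 9.17 in sdc-2(y93)+RNAi embryos. Its rise of 1.79 ± 0.08 (limma adjusted p = 4.9e-07) was the only call among 4 X-linked Wnt genes, and the groups were far apart. In smo-1 RNAi embryos mom-1 differed by -0.47. Of 26 autosomal Wnt genes 4 were called higher and 8 lower, or 8 and 3 on the brighter autosomal centring, the lowest being the TCF gene pop-1 with a fall of 1.39 ± 0.16. The Notch co-ligand gene osm-11 on X rose by 1.55 ± 0.14, the only call among 5 X-linked Notch genes. Among heterotrimeric G protein genes, the X-linked regulator gene rgs-2 rose by 1.67 ± 0.22 and the autosomal Gq alpha subunit gene egl-30 by 1.51 ± 0.12.

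No X-linked gene was called lower in the lists of neuronal, synaptic, neuropeptide, ligand-gated channel and guidance genes. The shares called higher were 40%, 50%, 41.4%, 25% and 66.7% in that order. Of all X-linked genes 36.6% were called higher, and of those above the median level 56.9%. All 15 neuronal genes and 13 of the 15 guidance genes were above that level. Of 15 X-linked genes of axon guidance and adhesion 10 were called higher, with a median of 0.73, while of 34 autosomal ones 3 were called higher and 9 lower, or 12 and 4 on the brighter autosomal centring. The netrin gene unc-6 was at 10.94, 11.05 and 10.80 in control and at 12.08, 12.23 and 12.16 in sdc-2(y93)+RNAi embryos, a rise of 1.23 ± 0.10 (limma adjusted p = 3.2e-05) without overlap, whereas its other probe set differed by 0.20 and was not called. The immunoglobulin adhesion gene rig-3 rose by 1.33 ± 0.22 and the neuronal migration gene mig-13 by 1.15 ± 0.16, and the Robo receptor gene sax-3 by 0.73 ± 0.09, a call lost (0.19) with probe sets averaged, since the other probe set was called lower (-0.34). The autosomal ephrin gene vab-2 fell by 1.20 ± 0.12.

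Of 15 X-linked neuronal genes 6 were called higher, and of 47 autosomal ones 6 higher and 9 lower, or 13 and 5 on the brighter autosomal centring. The liprin gene syd-2, which organises presynaptic sites, rose by 1.32 ± 0.23, the vesicle fusion gene unc-18 by 1.22 ± 0.15, the polarity kinase gene sad-1 by 1.16 ± 0.15 and the calcium channel gene unc-2 by 1.06 ± 0.12. Of 10 X-linked genes of synaptic and dense-core vesicles 5 were called higher, cab-1 by 1.56 ± 0.16. On autosomes the alpha-tubulin gene mec-12 of touch neurons was at 8.78, 9.02 and 8.86 in control and at 7.55, 7.46 and 7.56 in sdc-2(y93)+RNAi embryos, a fall of 1.37 ± 0.14. The potassium channel gene slo-1 fell by 1.09 ± 0.10. Neither fall depended on the scaling.

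Neuropeptide genes of the flp and nlp families were called higher in 12 of 29 on X, with none lower, and in 6 of 56 on autosomes, with 5 lower, or 20 and 2. Each of nlp-1 and flp-7 rose by 1.27 ± 0.22, and flp-5 by 1.13 ± 0.15. In smo-1 RNAi embryos the differences of nlp-1, flp-7 and flp-5 were 2.96, 2.25 and 2.79. Peptide and neurotransmitter receptor genes, mostly dim, were called higher in 11 of 42 on X and in 1 of 75 on autosomes, with 1 of the autosomal genes lower, or 20 and 0. Of these, frpr-17 rose most, by 1.60 ± 0.13, from 6.10, 6.01 and 6.11 to 7.37, 7.81 and 7.85. Of 24 X-linked ligand-gated ion channel genes 6 were called higher, and of 69 autosomal ones 0 were called higher and 3 lower by limma, or 13 and 2. The shares of X-linked receptor and channel genes called higher lay below the 36.6% of all X-linked genes. However, 8 of the 42 receptor genes and 8 of the 24 channel genes were above the median level, against 1380 of all 2353 X-linked genes. Shares among genes of like level were not compared.

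Gap junction genes of the innexin family lie on X and on autosomes. Of 6 X-linked innexins 5 were called higher, with a median of 0.65, against 56.9% of X-linked genes above the median level. Of 19 autosomal ones 2 were called higher and 6 lower (10.5% and 31.6%), or 4 and 2 on the brighter autosomal centring. On the values as deposited these shares were near the 12.6% and 32.7% of autosomal genes above the median level. The innexin gene unc-9, which couples muscle and nerve cells, was at 9.98, 10.45 and 9.74 in control and at 11.49, 11.96 and 11.76 in sdc-2(y93)+RNAi embryos, a rise of 1.68 ± 0.17 (limma adjusted p = 9.2e-05). inx-1, inx-3 and inx-2 rose by 0.93 ± 0.15, 0.68 ± 0.09 and 0.62 ± 0.11. The autosomal gene inx-19 fell by 0.70 ± 0.14.

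Of 14 X-linked body wall muscle genes, all above the median level, 8 (57.1%) were called higher and 1 lower. Of all such X-linked genes 56.9% were called higher and 3.41% lower. Of 33 autosomal muscle genes, also all above that level, 5 (15.2%) were called higher and 10 (30.3%) lower. This was against 12.6% and 32.7% of such autosomal genes. On the brighter autosomal centring the autosomal counts were 10 and 4. The X-linked actin gene act-4 rose by 0.78 ± 0.13 and the LIM adaptor gene unc-97 by 0.79 ± 0.11. The autosomal myogenic factor gene hlh-1 was at 8.09, 8.02 and 8.40 in control and at 7.19, 6.77 and 7.19 in sdc-2(y93)+RNAi embryos, a fall of 1.12 ± 0.14, and the myosin heavy chain gene myo-3 fell by 0.95 ± 0.13. Of 12 X-linked epidermal genes 6 were called higher and 2 lower, and of 36 autosomal ones 9 and 14, or 17 and 6. The nuclear receptor gene nhr-25, needed for epidermal development, was at 10.81, 10.77 and 10.73 in control and at 11.70, 12.11 and 11.76 in sdc-2(y93)+RNAi embryos, a rise of 1.09 ± 0.11.

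All 5 X-linked apical junction and polarity genes were above the median level, and 4 were called higher. Of all such X-linked genes 56.9% were called higher. The Crumbs gene eat-20 was at 8.35, 8.18 and 8.28 in control and at 10.02, 10.43 and 10.31 in sdc-2(y93)+RNAi embryos, a rise of 1.98 ± 0.11 (limma adjusted p = 3.8e-06). The junction genes dlg-1 and crb-1 rose by 0.94 ± 0.11 and 0.90 ± 0.09. The junction gene ajm-1 rose by 1.02 ± 0.12 on its brightest probe set, but its 6 probe sets disagreed, with differences between -0.67 and 1.02. Of 23 autosomal genes of this list 8 were called higher and 6 lower, or 14 and 5, among them jac-1, a p120 catenin gene, with a fall of 0.99 ± 0.13. Of 11 X-linked intestinal genes 3 were called higher and of 37 autosomal ones 7 higher and 5 lower, or 14 and 4. The autosomal cathepsin gene cpr-4 rose by 1.60 ± 0.16, and the esterase gene ges-1 fell by 0.80 ± 0.10. Of 9 X-linked pharyngeal genes 4 were called higher, and of 25 autosomal ones 1 higher and 6 lower, or 7 and 4 on the brighter autosomal centring.

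Among transcription factors, 12 of 27 X-linked nuclear hormone receptor genes were called higher and 1 lower, and 8 of 232 autosomal ones higher and 31 lower. Of all X-linked genes 36.6% were called higher, and of those above the median level 56.9%. daf-12, the receptor for the steroid hormone of the dauer decision, rose by 1.42 ± 0.15, nhr-45 by 1.35 ± 0.18 and nhr-1 by 1.23 ± 0.14. The autosomal counts turned to 79 and 14 on the brighter autosomal centring, which called 35.2% of all autosomal genes higher and 9.93% lower. Of 26 X-linked homeobox genes 9 were called higher and none lower. The POU gene ceh-18, which acts in the gonad sheath, rose by 1.81 ± 0.18, and the ONECUT genes ceh-41 and ceh-21 by 1.63 ± 0.13 and 1.33 ± 0.10. Of 71 autosomal homeobox genes 5 were called higher and 22 lower, turning to 19 and 3 on the brighter autosomal centring.

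Genes of chromatin repressors and histone-modifying enzymes on X were called higher in 4 of 5 cases. Among them were the H3K27 demethylase gene utx-1 (0.95 ± 0.12), the HP1 gene hpl-1 (0.70 ± 0.14) and the Mi-2 gene chd-3 (0.64 ± 0.09). Their autosomal relatives differed in sign. The second Mi-2 gene, let-418, was at 11.70, 11.39 and 11.88 in control and at 10.82, 10.45 and 10.54 in sdc-2(y93)+RNAi embryos, a difference of -1.05 ± 0.14, and the second HP1 gene, hpl-2, fell by 1.04 ± 0.17. Of 32 autosomal genes of the list 12 were called lower and 7 higher, or 7 and 14 on the brighter autosomal centring, the highest being the H3K36 methyltransferase gene met-1 with a rise of 1.39 ± 0.17. Of 6 X-linked Argonaute and small RNA genes, all above the median level, 5 were called higher, among them the microRNA Argonaute gene alg-1 (0.99 ± 0.17). Of 55 autosomal ones 4 were called higher and 4 lower, or 28 and 2.

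The phosphofructokinase gene pfk-1.1 was at 9.28, 9.35 and 9.29 in control and at 10.57, 10.79 and 10.67 in sdc-2(y93)+RNAi embryos, a rise of 1.37 ± 0.08 (limma adjusted p = 7e-06). It was 1 of 5 called higher among 8 X-linked genes of glycolysis and the TCA cycle, with a median of 0.50. All 8 were above the median level, where 56.9% of X-linked genes were called higher. Of 37 autosomal genes of the list 2 were called higher and 18 lower, or 8 and 9 on the brighter autosomal centring. The phosphoenolpyruvate carboxykinase gene pck-2 fell by 1.08 ± 0.10 and the hexokinase gene hxk-2 by 0.95 ± 0.11. The glyceraldehyde-3-phosphate dehydrogenase genes gpd-2 and gpd-3 on X, whose sequences are near copies and may share signal, rose by 0.63 ± 0.08 and 0.54 ± 0.11. Among 10 X-linked genes of amino acid and propionate breakdown 5 were called higher and 2 lower. The S-adenosylmethionine synthetase gene sams-1 rose by 0.96 ± 0.10. Of 34 autosomal ones 4 were called higher and 9 lower, and the enoyl-CoA hydratase gene ech-6 of the propionate shunt fell by 1.49 ± 0.16.

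Transporters on X were higher in 16 of 27 solute carrier genes (59.3%), with 1 lower, and in 6 of 15 ABC transporter genes (40%). Of all X-linked genes 36.6% were called higher, and of those above the median level 56.9%. Above that level were 21 of the 27 solute carrier genes and 9 of the 15 ABC transporter genes. The glutamate transporter gene glt-1 rose by 1.49 ± 0.18, the amino acid transporter gene aat-3 by 1.44 ± 0.10 and the zinc transporter gene cdf-1 by 1.26 ± 0.12. aat-3 was at 8.88, 8.99 and 9.09 in control and at 10.45, 10.41 and 10.41 in sdc-2(y93)+RNAi embryos, without overlap. Of 108 autosomal solute carriers 14 were called higher and 11 lower, or 47 and 4, beside 35.2% and 9.93% of all autosomal genes on the brighter autosomal centring. In the list of lysozymes, saposins and immune genes 6 of 10 on X were called higher, led by the MAP kinase kinase gene sek-1 of innate immunity (1.41 ± 0.16), and of 71 on autosomes 9 higher and 7 lower, or 27 and 3.

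Several of the X-linked genes named above had another probe set above the median level that was not called. It differed by 0.26 in cab-1, 0.30 in cdf-1, 0.13 in ceh-41, 0.31 in daf-3, 0.12 in hpl-1, 0.01 in inx-1, 0.19 in inx-3, 0.23 in osm-11 and 0.04 in unc-97. One of the other 2 of mig-13 differed by 0.00 to 2 decimals. Among autosomal genes the like held for aakg-5 (0.28), tra-3 (0.14), spn-4 (0.42) and 2 of 5 probe sets of hpl-2 (-0.39 and -0.45).

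In some X-linked families few or no genes were called higher. None of 18 X-linked cuticle collagen genes of the col family was called higher and 2 were lower, with a median of -0.12 that turns to 0.14 on the brighter autosomal centring, although 13 of them were above the median level. Among 4 X-linked body-shape collagen genes dpy-3 and dpy-7 fell, as given above. Of 4 X-linked histone genes, read by probe sets shared within the family, none was called higher and 2 lower. Of 9 X-linked actin and tubulin genes 2 were called higher, with a median of 0.03. Of 9 X-linked genes of fatty acid desaturation, elongation and binding 2 were called higher, and of 6 of peroxisomes and lipid oxidation 1.

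**Figure D5:**
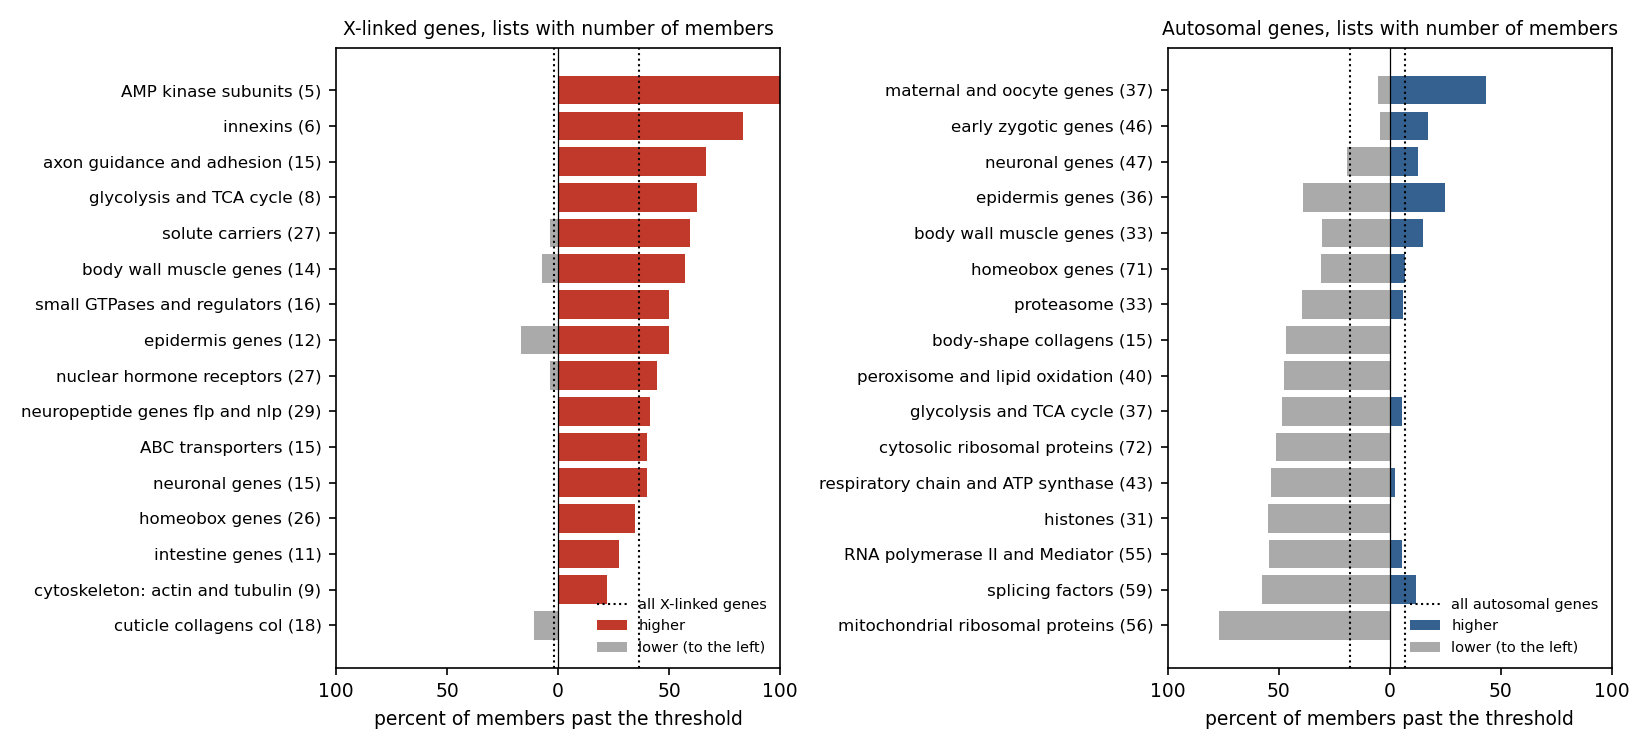
Percent of measured members called higher (coloured bars to the right) and lower (grey bars to the left) in 16 X-linked lists and 16 autosomal lists, with member numbers in parentheses and dotted lines at the shares of all X-linked or all autosomal genes. X-linked bars reach from 0% higher for col collagens to 100% for AMP kinase subunits, and the longest autosomal bar is 76.8% lower for mitochondrial ribosomal proteins.

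On autosomes the largest rises were those of dbd-13 and cpi-1. dbd-13 was at 7.91, 8.70 and 7.80 in control and at 12.52, 12.62 and 12.67 in sdc-2(y93)+RNAi embryos, a rise of 4.47 ± 0.19 (limma adjusted p = 4.2e-07). The cystatin gene cpi-1, an inhibitor of cysteine proteases, was at 5.41, 5.54 and 5.32 in control and at 9.76, 9.39 and 9.97 in sdc-2(y93)+RNAi embryos, a rise of 4.28 ± 0.13. In neither gene did the groups come near each other. The ground-like Hedgehog-related genes grl-21 and grl-4 rose by 3.88 ± 0.10 and 2.87 ± 0.20, srlf-34 by 3.24 ± 0.10, K09D9.1 by 2.98 ± 0.21, dod-19 by 2.92 ± 0.16 and F16B4.4 by 2.69 ± 0.09. The antimicrobial peptide genes cnc-4 and nlp-29, known from the infected or wounded epidermis, rose by 3.03 ± 0.19 and 3.00 ± 0.18. In smo-1 RNAi embryos each of these 10 genes differed from the shared control arrays by more, between 4.40 for K09D9.1 and 5.92 for grl-21.

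These rises were not shared by their families. Of 70 autosomal Hedgehog-related and Patched-related genes 5 were called higher and 19 lower, or 16 and 9 on the brighter autosomal centring, and grl-16 fell by 1.35 ± 0.14. The antimicrobial gene cnc-3 was at 8.60, 8.92 and 8.65 in control and at 7.50, 6.66 and 7.58 in sdc-2(y93)+RNAi embryos, a fall of 1.48 ± 0.21 opposite to cnc-4.

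The lowest autosomal genes were H23N18.5 (-2.43 ± 0.20) and T03D8.6 (-2.31 ± 0.14), which have no described role here. The autophagy transmembrane protein gene atg-9 was at 9.12, 9.40 and 9.28 in control and at 7.30, 6.87 and 7.13 in sdc-2(y93)+RNAi embryos, a difference of -2.17 ± 0.17 (limma adjusted p = 2.7e-05). The flavin monooxygenase gene fmo-2 (-1.92 ± 0.17), the Mediator subunit gene mdt-29 (-1.87 ± 0.16), the alcohol dehydrogenase gene adh-1 (-1.86 ± 0.13) and the cap-binding gene ncbp-2 (-1.85 ± 0.21) came next. They were followed by the nuclear anchorage gene anc-1 (-1.81 ± 0.18 on the brightest of 6 probe sets, with -0.22 and -0.18 and no call on the next), hrg-7 (-1.80 ± 0.19) and tfg-1, which acts in export from the endoplasmic reticulum (-1.79 ± 0.22). In smo-1 RNAi embryos T03D8.6 and adh-1 differed by -0.55 and -0.23, and the other 8 by between -1.35 for anc-1 and -3.56 for H23N18.5.

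Lists of the machinery for making messengers and proteins, nearly all of it autosomal, differed in their shares of lower genes, against 17.8% of all autosomal genes and 32.7% of those above the median level. Of 56 mitochondrial ribosomal protein genes 43 were called lower and none higher, with a median of -0.57, and 31 were still lower and 1 higher on the brighter autosomal centring. mrpl-41 was at 9.44, 9.55 and 9.52 in control and at 8.42, 7.84 and 8.38 in sdc-2(y93)+RNAi embryos, a fall of 1.29 ± 0.15, and mrpl-47 fell by 1.24 ± 0.15. Of 72 cytosolic ribosomal protein genes 37 were called lower and none higher (median -0.29), which dropped to 11 lower and 2 higher on the brighter autosomal centring, and rps-27A fell most, by 0.82 ± 0.08. Of 69 autosomal genes of translation factors and aminoacyl-tRNA synthetases 17 (24.6%) were called lower and 3 higher, or 7 lower and 17 higher on that centring.

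Of 59 autosomal splicing factor genes 34 were called lower and 7 higher (median -0.44), or 19 and 15 on the brighter autosomal centring. The Sm protein gene snr-7 was at 12.19, 12.09 and 12.37 in control and at 11.16, 11.07 and 11.18 in sdc-2(y93)+RNAi embryos, a fall of 1.08 ± 0.09. Of 55 autosomal genes of RNA polymerase II, its general factors and Mediator 30 were called lower and 3 higher (median -0.43), or 20 and 7, and the TFIIF subunit gene gtf-2F2 fell by 1.19 ± 0.11. On X 3 of 4 genes of that list were called higher, taf-3 by 1.16 ± 0.15. Of 31 autosomal histone genes 17 were called lower and none higher (median -0.45), or 11 and 3, with falls of 1.28 ± 0.12 for his-41 and 1.20 ± 0.13 for his-35.

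Of 43 autosomal genes of the respiratory chain and ATP synthase 23 were called lower and 1 higher (median -0.35), or 13 and 5 on the brighter autosomal centring. The copper chaperone gene cox-17 was at 8.66, 8.71 and 8.67 in control and at 7.47, 6.86 and 6.80 in sdc-2(y93)+RNAi embryos, a fall of 1.64 ± 0.16. The flavoprotein subunit of succinate dehydrogenase is encoded by sdha-1 on X and sdha-2 on chromosome I, and they rose by 0.84 ± 0.09 and 0.61 ± 0.15. Of 40 autosomal genes of peroxisomes and lipid oxidation 19 were called lower and none higher, or 11 and 4. Of 33 autosomal proteasome genes 13 were called lower and 2 higher, or 10 and 5. Of 24 autosomal antioxidant genes 11 were called lower and 2 higher, or 7 and 5, and the catalase gene ctl-2 fell by 1.47 ± 0.11.

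Of 15 autosomal body-shape collagen genes 7 were called lower and none higher (median -0.52), or 3 and 1 on the brighter autosomal centring. dpy-14 was at 13.38, 13.27 and 13.28 in control and at 12.72, 12.49 and 12.65 in sdc-2(y93)+RNAi embryos, a fall of 0.69 ± 0.10. Of 110 autosomal col genes, 62 of them above the median level, 26 (23.6%) were called lower and 2 higher, or 16 and 12. The share called lower lay between the 17.8% of all autosomal genes and the 32.7% of those above the median level. The largest fall was that of col-65 (-1.61 ± 0.17), whose probe set can bind more than 1 transcript. The cuticlin gene cut-6 fell by 1.37 ± 0.13.

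Maternal genes are loaded into the oocyte and are most abundant in the youngest embryos. Of 37 autosomal maternal and oocyte genes 16 (43.2%) were called higher and 2 lower, and 19 were not called, with a median of 0.36. Of all autosomal genes 6.75% were called higher and 17.8% lower, and of those above the median level 12.6% and 32.7%. On the brighter autosomal centring 23 of the maternal and oocyte genes were called higher and 1 lower. The CCCH finger gene mex-6 was at 10.27, 9.88 and 10.37 in control and at 11.22, 11.09 and 11.28 in sdc-2(y93)+RNAi embryos, a rise of 1.03 ± 0.13 (limma adjusted p = 0.00023). The RNA-binding protein genes spn-4 and gld-1 rose by 1.02 ± 0.15 and 0.86 ± 0.09, and mex-5 by 0.76 ± 0.10. The P granule gene pgl-1 fell by 0.77 ± 0.12 and the katanin gene mei-1 by 0.51 ± 0.13, a call lost on that centring (-0.25) and without control replicate 3 (-0.41). The oocyte genes cpg-1 and puf-3 differed by 0.06 ± 0.15 and 0.01 ± 0.16 and were not called. On X the P granule gene meg-1 rose by 0.90 ± 0.13. One of the 16, egg-6, is known from the excretory duct rather than the egg, and its call was lost with probe sets averaged (0.24) and without control replicate 2 or 3 (0.33 and 0.36).

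Of 46 autosomal genes first transcribed in the early embryo 8 were called higher and 2 lower, with a median of 0.03, or 21 and 0 on the brighter autosomal centring. sdz-25 rose by 0.75 ± 0.12 and die-1 by 0.58 ± 0.14, a call lost with probe sets averaged (0.13). The 2 lower genes, sdz-38 (-0.54 ± 0.12) and sdz-8 (-0.48 ± 0.10), were not called on the brighter autosomal centring. The endoderm genes end-1 and end-3 differed by -0.17 ± 0.14 and -0.16 ± 0.14, and neither was called. The maternal and early genes stand beside every family above as a reading of genes tied to embryonic stage, and their part in the other results was not tested.

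Of 69 autosomal sperm genes 4 were above the median level, and 2 were called higher and 1 lower. On the brighter autosomal centring, which called 35.2% of all autosomal genes higher, the counts were 29 and 0. The 5 genes of yolk proteins, which the adult intestine makes, 4 of them on X, were all below the median level and limma called none, or 4 of 4 on X higher on that centring.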

How the data were processed

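Total RNA of whole embryos was measured on 9 Affymetrix arrays, 3 per group. Per the submitters' processing notes, the authors made the deposited log2 values with RMA in Affymetrix Expression Console. These values were used without further normalization, control probe sets and probe sets annotated to several genes or none were left out, and each gene was read from its brightest probe set over 9 arrays. Gene names and chromosomes came from the platform annotation and a RefSeq gene table. All 9 arrays entered 1 fit in R 4.3.3 with limma 3.58.1 (lmFit and eBayes, 3 groups, 6 residual degrees of freedom), with two-sided tests and Benjamini-Hochberg adjustment over 17118 genes at 0.05. On simulated data with 200 changed genes, the sdc-2(y93)+RNAi against control comparison recovered 34% of log2 changes of 0.5, with 5 unchanged genes called, and 86.5% of changes of 1, with 7 called. The number of arrays limits the precision.

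The members and the 83 gene lists were chosen with earlier results of these data known. Named genes were sdc-2, her-1 and smo-1, the 10 highest and 10 lowest called genes without overlap between groups on X and on autosomes, up to 4 called members per list, class and direction by adjusted p (up to 2 as values where none was called), and any member of lists of at most 12. Genes outside this rule, chosen after their values were seen, were C45B2.8, age-1, cpg-1, daf-16, daf-2, dmd-3, egg-6, end-1, end-3, ftt-2, gap-1, glt-1, gpd-3, mab-3, mig-13, mrpl-41, mrpl-47, nhr-45, puf-3, rig-3, sex-1, spn-4 and tra-3. Alternatives changed the scaling, the probe sets, the level filter, the arrays in the fit, array weights, eBayes settings, the threshold and the replicate block, and left out each array. No sequences were used.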

Additional observations from a re-analysis of the deposited data

Results flagged for a closer look

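The hybridisation controls were brighter on sdc-2(y93)+RNAi than on control arrays, while other probe sets outside the comparison of genes differed in both directions. The hybridisation controls, bacterial and phage sequences added to the sample before hybridisation, differed by 7.87 for cre, 6.22 for bioD, 3.5 for bioC and 1.64 for bioB on the log2 scale. Among 895 probe sets that the platform annotation does not list, 45 were called higher and 42 lower by limma at an adjusted p of 0.05. Among 887 probe sets annotated to several genes, 35 were called higher and 114 lower. Groups of 3 arrays are too small for a check of single arrays that stand apart.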

How the results depend on the processing

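X-linked genes called higher numbered 862, and 1705 when arrays were centred on the brighter autosomal genes and 567 when a fold of at least 1.5 was required. X-linked genes called lower numbered 48, and 16 under that centring, 30 without probe sets that can bind related transcripts, 27 at an adjusted p of 0.01 and 17 with the fold. Autosomal genes called higher numbered 993, and 5178, 589 and 488 with the centring, the stricter threshold and the fold. Autosomal genes called lower numbered 2622, and 1462 with the centring, 1742 without shared probe sets, 1726 at the stricter threshold and 1495 with the fold. The X shift of 0.63 was 0.23 over genes of any level. Stricter thresholds call fewer genes and centring adds 0.26 to each difference by construction. Leaving out 1 array gave 683 to 837 X-linked genes higher and 34 to 47 lower, 738 to 1082 autosomal genes higher and 2047 to 2568 lower, and an X shift of 0.58 to 0.67. With the replicate block the counts were 857, 49, 988 and 2645 and the shift was 0.63. Deviations of same-numbered arrays correlated at 0.04, 0.24 and 0.18, so the numbers were not taken to pair the samples. The differences of daf-5 and pdk-1 turned to -0.23 and -0.0034 without probe sets that can bind related transcripts, and the cause was not tested. Dim genes carry little signal over background, and few of them were called on the values as deposited. In the dimmest eighth 0.55% of X-linked and 0.10% of autosomal genes were called higher, and 0.15% of autosomal genes lower.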
